A study of Mus musculus with 30 samples.

Results

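Paclitaxel Resistance Group 2 is a set of mouse lymphoma lines that became resistant to paclitaxel in culture and that the study set apart because they were also less sensitive to most other drugs assayed. Its members here are 8 of the 30 libraries of the series, compared with the 11 libraries titled DMSO 1 to DMSO 11. The 8 were chosen by a reading of the library titles that is a hypothesis: each library from the one titled DMSO 12 on takes the title of the next library, so that Group 2 becomes the libraries titled DMSO 12, Pac C3, Pac C11, Pac D4, Pac D7, Pac D10, Pac E1 and Pac F10. That reading was selected on measured values, because it was proposed from fold changes between these same 8 libraries and the DMSO control lines. The comparison of 8 with 11 is therefore a description: its values are given, and what a fit of it calls is printed as background and read as no result. The comparisons read as tests use only libraries that hold the same group whether or not the titles are moved, which are the 5 titled Pac C11, Pac D4, Pac D7, Pac D10 and Pac E1 (called the shared libraries), the same 11 DMSO control lines, and the 6 titled Pac B2, Pac C1, Pac H1, Pac H3, Pac H4 and Pac H8, which belong to Paclitaxel Resistance Group 1 under both readings.

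All lines came from 1 Eµ-Myc; p19ARF-/- lymphoma cell line, in which the Myc oncogene is driven by the immunoglobulin heavy chain enhancer and the tumour suppressor p19ARF is missing, so the controls carry both lesions too. Cells were seeded in wells, exposed to a dose of paclitaxel that killed 85% of cells or to its solvent DMSO, and returned to drug-free medium, in a weekly cycle repeated 12 to 18 times. Each line is 1 well and has 1 library, so the p-values measure the spread between parallel lines of 1 parental line. By its deposited label the library titled DMSO 12 is a control, and it is a Group 2 line only under the moved titles.

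Paclitaxel binds β-tubulin, stabilises microtubules and stalls cells in mitosis. Known routes to resistance are efflux of the drug by P-glycoprotein, which in mice is encoded by Abcb1a and Abcb1b, a changed choice of tubulin isotypes, detoxification through glutathione S-transferases and a weaker apoptotic response. Lymphoma cells of this model are B-lineage cells.

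The 8 libraries held 989719 to 4602674 counts and the 11 DMSO libraries 1053948 to 6739131. Levels are normalised counts per 1000000 counts of the library's scaled total (CPM), and fold changes are on the log2 scale. All 14 B-cell markers checked were detected among the 8 libraries, with a summed level of 5805 to 14172 CPM (median 10071) against 10714 to 20197 (median 16592) in DMSO control. The immunoglobulin genes Igkc and Ighm were large parts of these sums. Igkc held 994 to 6746 CPM in the 8 libraries against 3441 to 9629 in DMSO control, and Ighm 2231 to 4181 against 2647 to 6292. Markers of other lineages were low: the 8 T-cell markers summed to 1.70 to 23.8 CPM against 1.74 to 13.2, with Cd3e and Cd4 at 0 in all 19 libraries, and the 8 myeloid markers summed to 4.48 to 47.1 CPM against 2.85 to 28.1, with S100a8, S100a9 and Elane at 0 in all 19. The highest myeloid sum was Itgam, an integrin chain, in Pac D10 (47.1 CPM, against 0.503 to 9.12 in the other 7 of the 8 and 1.71 to 27.9 in DMSO control), and its part in the results was not tested. The 5 plasma cell markers summed to 46.1 to 189 CPM against 55.1 to 189.9, and the 6 erythroid and stromal markers, almost all of it Pecam1, to 9.22 to 47.8 against 40.4 to 77.3. No library was a copy of another, as the closest pair of the 8 differed by 11.5 times the sampling noise (chi-square per degree of freedom). The root-mean-square log2 difference between any 2 of the 8 libraries was 0.61 to 1.40 (median 1.11), against 0.39 to 1.08 (median 0.60) between any 2 DMSO libraries. From the 8 to the DMSO libraries it was 0.73 to 1.32 (median 1.03), so by the median the 8 were no closer to each other than to the controls.

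The promoters of 4 genes that carry the contrast are shown with every CG dinucleotide in capitals. Abcb1b and Tubb3 stood above, and Maoa and Zfp979 below, most or all DMSO control values in the 8 libraries. Each sequence is the 250 bases before the RefSeq start of the gene on its own strand, in the GRCm38.p6 build.
Abcb1b, chr5:8797897-8798146, plus strand: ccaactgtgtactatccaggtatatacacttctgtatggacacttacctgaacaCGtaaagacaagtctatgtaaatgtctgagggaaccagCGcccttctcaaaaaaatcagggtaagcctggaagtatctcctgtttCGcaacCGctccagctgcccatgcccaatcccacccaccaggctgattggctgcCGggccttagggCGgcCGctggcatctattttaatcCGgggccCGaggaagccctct
Tubb3, chr8:123411303-123411552, plus strand: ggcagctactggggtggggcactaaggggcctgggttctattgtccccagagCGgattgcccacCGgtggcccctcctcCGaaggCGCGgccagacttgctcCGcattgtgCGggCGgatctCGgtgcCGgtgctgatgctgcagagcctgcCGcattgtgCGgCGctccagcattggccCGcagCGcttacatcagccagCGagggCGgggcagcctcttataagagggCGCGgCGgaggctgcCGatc
Maoa, chrX:16619448-16619697, plus strand: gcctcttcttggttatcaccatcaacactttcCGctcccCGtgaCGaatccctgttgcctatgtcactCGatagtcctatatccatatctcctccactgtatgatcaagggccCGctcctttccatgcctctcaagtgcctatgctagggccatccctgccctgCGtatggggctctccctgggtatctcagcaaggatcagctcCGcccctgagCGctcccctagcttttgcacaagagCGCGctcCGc
Zfp979, chr4:147642509-147642758, minus strand: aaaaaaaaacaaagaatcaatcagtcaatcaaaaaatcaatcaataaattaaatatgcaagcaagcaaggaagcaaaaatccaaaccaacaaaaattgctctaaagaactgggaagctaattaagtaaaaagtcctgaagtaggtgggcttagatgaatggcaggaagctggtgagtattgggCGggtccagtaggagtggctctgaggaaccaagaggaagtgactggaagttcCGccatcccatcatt
The window before Tubb3 holds 21 CG, that before Maoa 11, that before Abcb1b 9 and that before Zfp979 2. Among 7641 tested genes with a promoter in the reference table the median was 17, and 33.8%, 74.9%, 81.1% and 97.7% of those promoters held at least as many CG as the windows of Tubb3, Maoa, Abcb1b and Zfp979. The count describes the letters only, since no methylation was measured.

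Across the genome, 481 of 10032 genes tested had an adjusted p under 0.01 between the 8 libraries and DMSO control, which is 4.79% of them. Of these, 275 (2.74%) were higher and 206 (2.05%) lower. This count is no evidence about Group 2, since the fold changes chose the libraries. Without the library titled DMSO 12 the count was 598, without Pac C3 it was 407 and without DMSO 11 it was 577. It fell to between 295 and 320 without DMSO 1 (317), DMSO 2 (295), DMSO 3 (314), DMSO 4 (320), DMSO 7 (305), Pac C11 (306), Pac D4 (318) or Pac F10 (312). With the titles as deposited (8 of Group 2 against 12 of DMSO) it was 196, of which 148 were among the 481. In 26 genes (0.259%) all 8 libraries stood above all 11 DMSO control values, and in 47 (0.469%) all 8 stood below them. By a margin of at least 4-fold between the nearest libraries, 3 genes (0.0292%) stood above and 7 (0.0682%) below. These 2 shares are of the 10271 genes tested in the fit of the shared libraries.

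The tested comparison asks which genes differ between the 5 shared libraries and DMSO control. In edgeR's quasi-likelihood test 415 of 10271 genes (4.04%) had an adjusted p under 0.01. Of these, 206 (2.01%) were higher, with a median log2 fold change of 1.49, and 209 (2.03%) were lower, with a median of -1.47. The median over all genes tested was 0.09. The 5 shared libraries were also set against the 6 of Group 1, where 31 genes passed (0.302%), 7 of them higher (0.0682%) and 24 lower (0.234%). That balance depends on the test: it was 179 higher and 113 lower by the likelihood ratio test, 161 and 110 by DESeq2 and 263 and 177 at an adjusted p of 0.05. Both groups share the DMSO control lines in their own comparisons, so only this direct test says where Group 2 differs from Group 1. The count in 5 against 11 was 219 without Pac C11, 224 without Pac D4 and 802 without DMSO 11. With only the 2 groups compared in the fit, 268 genes passed in 5 against 11 and 2 in 5 against 6. In 5 against 11 this ended the calls of Bax, Cd72, Vpreb3, Myc, H2-D1, Orai2, Pecam1, Cdkn1a and Ccng1 (edgeR adjusted p = 0.0111 to 0.0320). After thinning to 480919 counts per library 31 passed in 5 against 11, and 26 of the named calls were lost, among them Abcb1b (edgeR adjusted p = 0.246) and G6pdx (0.0377).

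**Figure D1:**
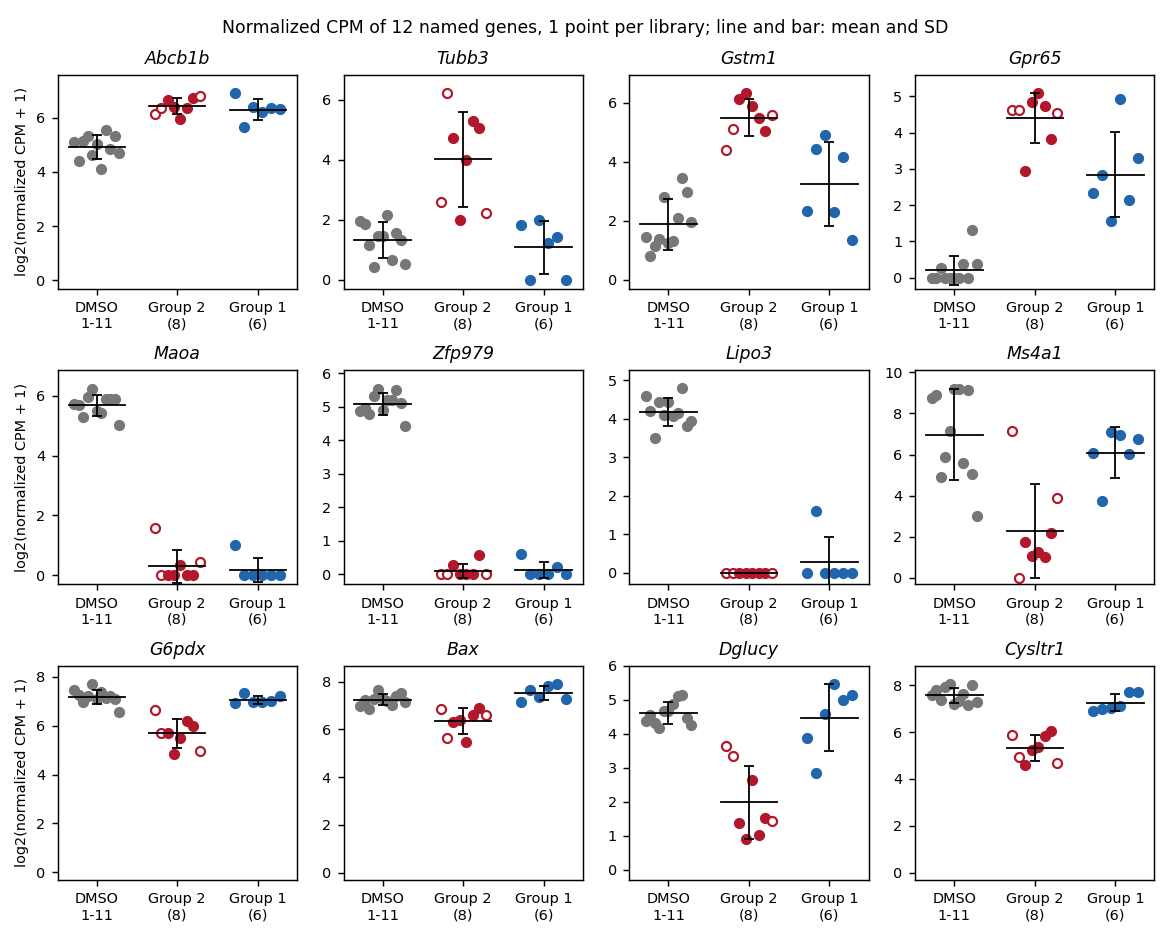
Level of 12 genes, as log2(normalized CPM + 1), with 1 point per library for DMSO 1 to 11 (grey), the 8 libraries of Group 2 under the moved titles (red) and the 6 of Group 1 (blue). Open red points are the libraries titled DMSO 12, Pac C3 and Pac F10 which are in Group 2 only under the moved titles, and lines and bars are the mean and SD; Lipo3 was at 0 in all 8 red points.

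The drug efflux genes Abcb1b and Abcb4 rose. Abcb1b (chromosome 5, 8798147 to 8866315, plus strand) stood at 99.2, 82.4, 60.3, 80.9 and 104 CPM in the shared libraries titled Pac C11, Pac D4, Pac D7, Pac D10 and Pac E1. The libraries titled DMSO 12, Pac C3 and Pac F10 held 70.0, 80.8 and 109.8 CPM. DMSO control ranged from 16.04 to 45.7 CPM with a median of 31.7, so that all 8 libraries lay above all 11. The mean was 86.0 ± 17.2 CPM (SD, n = 8) against 30.5 ± 9.00 (SD, n = 11), and in the tested set the log2 fold change was 1.50 (standard error 0.207, edgeR adjusted p = 3.84e-05). Group 1 did not differ from the shared libraries past the threshold, at 48.9 to 118 CPM (median 80.1) and a log2 difference of 0.07 (standard error 0.241, edgeR adjusted p = 0.882).

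Abcb4, the next gene along the chromosome and a paralog that moves phosphatidylcholine in liver, was close to absent in DMSO control, at 0 to 0.376 CPM. It reached 21.9, 13.4, 21.3, 9.22 and 3.77 CPM in the shared libraries and 1.51, 2.53 and 58.3 CPM in those titled DMSO 12, Pac C3 and Pac F10. Every one of the 8 lay above every control, and the log2 fold change of the tested set was 6.65 (standard error 0.686, edgeR adjusted p = 6.22e-07). Group 1 held 0 to 4.87 CPM of Abcb4, and the log2 difference of 2.63 between the groups did not pass (standard error 0.671, edgeR adjusted p = 0.0314). Abcb1a, the other mouse P-glycoprotein gene, had 3 counts in the 8 libraries together and 0 in the 11 controls. Abcc1, another efflux pump, stood at 19.8 to 38.7 CPM in the 8 libraries and 13.9 to 27.9 in DMSO control, a log2 fold change of 0.39 in the tested set (standard error 0.213, edgeR adjusted p = 0.228). Of the 10 efflux transporters tested, 2 rose and none fell, with a median log2 fold change of 0.64, beside 2.01% higher, 2.03% lower and a median of 0.09 over all genes tested. Among 6 tested neighbours of Abcb1b, Abcb4 rose and Tmem243 fell (log2 fold change -1.19, standard error 0.256, edgeR adjusted p = 0.00388), a call that was lost without Pac C11 or Pac D4 (edgeR adjusted p = 0.0152 and 0.0132).

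Among tubulin genes 1 isotype rose. Tubb3 encodes class III β-tubulin, the neuronal isotype associated with taxane resistance. It stood at 25.2, 2.98, 14.9, 37.9 and 32.3 CPM in the shared libraries titled Pac C11, Pac D4, Pac D7, Pac D10 and Pac E1, and at 5.03, 73.2 and 3.61 CPM in DMSO 12, Pac C3 and Pac F10. DMSO control held 0.324 to 3.46 CPM (median 1.71), so 7 of the 8 were above every control, and the library titled Pac D4 was within their range. The level was thus uneven within Group 2, from 2.98 to 73.2 CPM. In the tested set the log2 fold change was 3.73 (standard error 0.505, edgeR adjusted p = 2.97e-05), and against the 6 of Group 1, at 0 to 2.92 CPM, it was 3.74 (standard error 0.650, edgeR adjusted p = 0.00305), which missed the threshold without Pac H3 or Pac H4 (edgeR adjusted p = 0.0105 to 0.0111) or with only the 2 groups in the fit (0.0224). Tuba1c, an α-tubulin gene, fell (62.0 to 145 CPM in the shared libraries against 132 to 215 in DMSO control, log2 fold change -0.79, standard error 0.173, edgeR adjusted p = 0.00418), but not without Pac C11, Pac D4 or Pac D10 (edgeR adjusted p = 0.0104 to 0.0176), and after thinning its log2 fold change was -0.18 (0.913). The other 11 of 13 tubulin isotypes tested did not pass, nor did any of 27 genes of microtubule and tubulin handling or any of 17 spindle checkpoint and mitosis genes, whose median log2 fold changes were 0.11 and -0.22. Over all genes tested 2.01% were higher and 2.03% lower, with a median of 0.09.

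Gstm1, a mu-class glutathione S-transferase on chromosome 3, was higher in all 8 libraries than in any control. Its levels were 68.9, 79.0, 57.8, 44.1 and 31.8 CPM in the shared libraries, 20.1, 33.7 and 47.5 CPM in DMSO 12, Pac C3 and Pac F10, and 0.751 to 9.83 CPM (median 1.75) in DMSO control. The log2 fold change of the tested set was 4.27 (standard error 0.498, edgeR adjusted p = 4.21e-06). Group 1 held 1.57 to 29.2 CPM, and the log2 difference of 2.22 between the groups did not pass the threshold (standard error 0.571, edgeR adjusted p = 0.0318). Gsto1, of the omega class and on chromosome 19, fell (72.7 to 168 CPM in the shared libraries against 172 to 315, log2 fold change -0.89, standard error 0.209, edgeR adjusted p = 0.00697). It missed the threshold without DMSO 1, DMSO 8, DMSO 9, Pac C11, Pac D7 or Pac D10 (edgeR adjusted p = 0.0105 to 0.0195). Group 1 held 64.3 to 148 CPM of Gsto1, and the log2 difference of 0.28 between the groups did not pass (standard error 0.227, edgeR adjusted p = 0.459). The other 13 of 15 glutathione genes tested did not pass, and their list had a median of -0.18, beside 2.01% higher, 2.03% lower and a median of 0.09 over all genes tested.

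**Figure D2:**
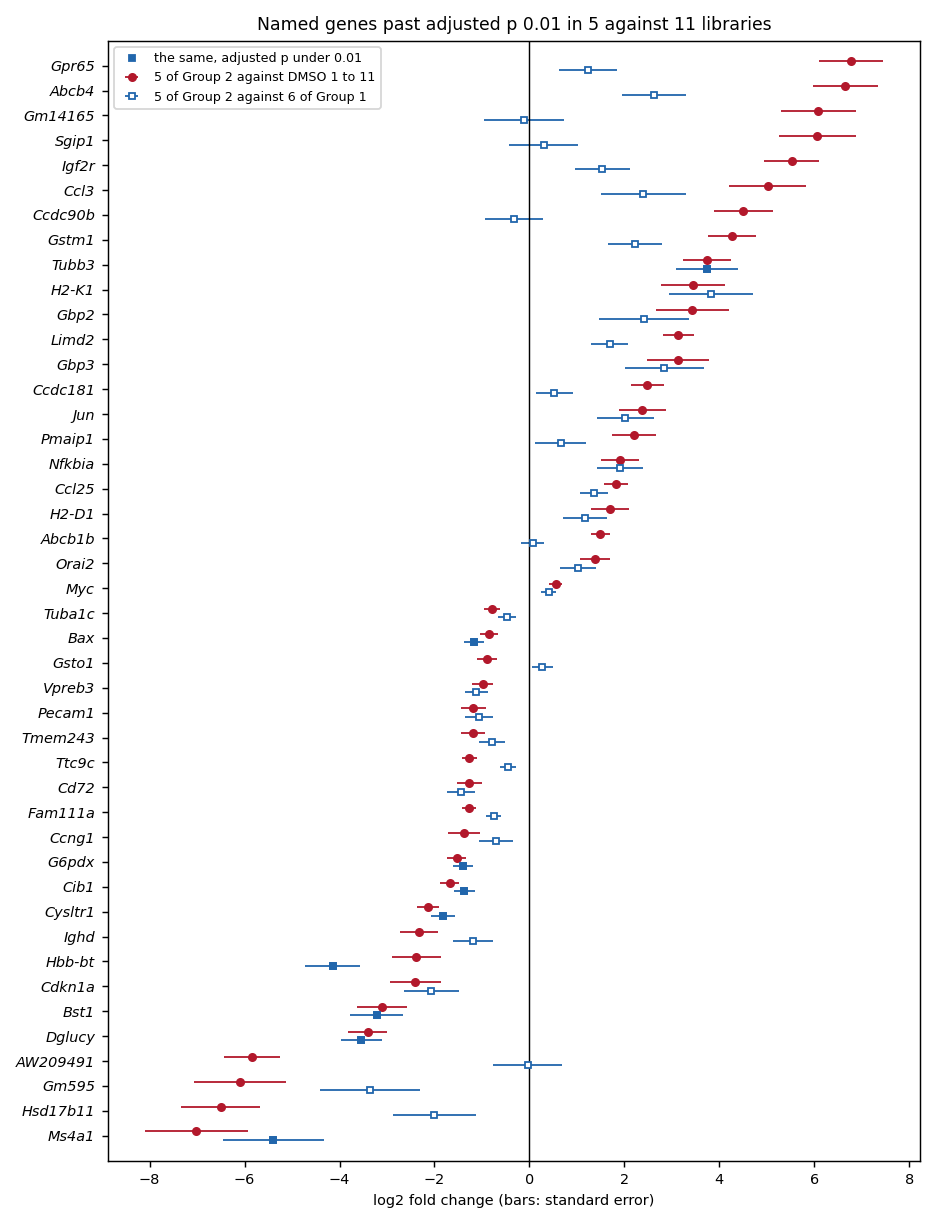
Log2 fold change (horizontal axis, bars are standard errors) of the 44 named genes that passed an adjusted p of 0.01 in 5 against 11 libraries and had more than 3 counts on each side. Red circles are the 5 shared libraries against DMSO 1 to 11 and blue squares the same 5 against the 6 of Group 1, filled where that test passed too; filled squares stand beside genes such as Tubb3, G6pdx and Dglucy, and the square of Abcb1b lies near 0.

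Of the pro-death genes Bax fell and Pmaip1 rose, and of the p53 targets Cdkn1a and Ccng1 fell. Bax, an executioner of the mitochondrial death pathway, stood at 78.6, 82.4, 43.4, 95.3 and 117 CPM in the shared libraries and 115, 48.8 and 96.0 CPM in DMSO 12, Pac C3 and Pac F10, against 114 to 199 CPM in DMSO control. Of the 8, 6 were below every control, and the log2 fold change in the tested set was -0.85 (standard error 0.188, edgeR adjusted p = 0.00474). The 6 of Group 1 held 142 to 234 CPM and the direct difference was -1.16 (standard error 0.208, edgeR adjusted p = 0.00397). Both calls were lost without Pac C11, Pac D4 or Pac D7 (edgeR adjusted p = 0.0134 to 0.0166 against DMSO control), and the second also without Pac H3 or Pac H4 (0.0103 to 0.0138 over the 5) or with only the 2 groups in the fit (0.0633). Pmaip1, the BH3-only gene of Noxa, rose to 15.3 to 119 CPM from 1.98 to 23.6 (log2 fold change 2.20, standard error 0.460, edgeR adjusted p = 0.00304; 0.0353 without Pac C11), and the other 8 of 10 pro-death genes did not pass. Cdkn1a, the cell cycle inhibitor p21 and a target of p53, stood at 6.10, 1.49, 2.49, 1.02 and 1.41 CPM against 2.28 to 34.9 in DMSO control (log2 fold change -2.41, standard error 0.534, edgeR adjusted p = 0.00481). Ccng1, another p53 target, was also lower (log2 fold change -1.37, standard error 0.335, edgeR adjusted p = 0.00928). Cdkn1a missed the threshold without Pac D4, Pac D7 or Pac E1 (edgeR adjusted p = 0.0103 to 0.0188), and Ccng1 without any 1 of 11 libraries (0.0101 to 0.0205), namely DMSO 1, 3, 4, 6, 7, 8 and 9 and Pac D4, D7, D10 and E1. These were 2 of 11 p53 targets tested, and the median of that list was -0.11, beside 2.03% lower and a median of 0.09 over all genes. Of the 7 pro-survival BCL2 genes, 2 could be tested and neither passed. Bcl2l1, the gene of BCL-XL, stood at 0.236 to 3.07 CPM in the shared libraries and 0.348 to 2.47 in DMSO control (exact rank-sum permutation test, two-sided, unadjusted p = 0.377, n = 5 and 11).

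G6pdx, the first enzyme of the pentose phosphate pathway, fell. Its levels were 50.2, 27.7, 43.4, 72.7 and 62.9 CPM in the shared libraries, 98.1, 50.5 and 29.8 CPM in DMSO 12, Pac C3 and Pac F10, and 92.1 to 205 CPM (median 146) in DMSO control. The library titled DMSO 12 was the single member of the 8 inside the control range. The log2 fold change was -1.53 (standard error 0.197, edgeR adjusted p = 1.66e-05) against DMSO control and -1.39 (standard error 0.213, edgeR adjusted p = 0.00121) against Group 1, which held 119.7 to 159 CPM. The latter missed the threshold with only the 2 groups in the fit (edgeR adjusted p = 0.0283). None of the other 6 genes of the pathway passed, and the list's median was -0.05, beside 2.03% lower and a median of 0.09 over all genes tested.

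Bst1 and Dglucy were lower in Group 2 than in both other groups. Bst1 encodes the ADP-ribosyl cyclase CD157 and stood at 2.56, 2.34, 6.64, 9.22 and 1.41 CPM in the shared libraries against 7.12 to 65.2 in DMSO control and 12.8 to 65.8 in Group 1. In DMSO 12, Pac C3 and Pac F10 Bst1 stood at 4.03, 3.37 and 11.4 CPM, and it was below every control in 6 of the 8. Its log2 fold change was -3.11 against DMSO control (standard error 0.527, edgeR adjusted p = 0.000443) and -3.22 against Group 1 (standard error 0.556, edgeR adjusted p = 0.00305), the latter lost without Pac C11, Pac D4 or Pac H3 (edgeR adjusted p = 0.0108 to 0.0137) or with only the 2 groups in the fit (0.0263). Dglucy, the D-glutamate cyclase, stood at 1.58, 0.852, 5.26, 1.02 and 1.89 CPM in the shared libraries. The libraries titled DMSO 12 and Pac C3 held more, at 11.6 and 9.26 CPM, and Pac F10 held 1.72, all still below the lowest control (17.0). Its log2 fold change was -3.41 against DMSO control (standard error 0.415, edgeR adjusted p = 6.52e-06) and -3.54 against Group 1 (standard error 0.438, edgeR adjusted p = 0.000138), which missed the threshold with only the 2 groups in the fit (edgeR adjusted p = 0.0116).

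Cacna1e encodes the pore of an R-type calcium channel and was too scarce for the filter on low counts. It had 143 counts in 7 of the 8 libraries, 77 of them in Pac F10 alone, and 0 in all 11 controls. In the shared libraries it had 53 counts in 4 of 5, at least 43.0-fold higher when 3 counts over the control group are taken as the floor, at 2.36, 4.47, 3.60, 0 and 1.65 CPM (exact rank-sum permutation test, two-sided, unadjusted p = 0.00549, n = 5 and 11), and Group 1 had 2 counts. The study picked Cacna1e for its higher level in Group 2 in these same samples, so this p-value is not independent evidence. Of 19 calcium channel and calmodulin kinase genes tested, Orai2, a store-operated channel subunit, rose (11.3 to 36.4 CPM against 1.97 to 16.2, log2 fold change 1.39, standard error 0.317, edgeR adjusted p = 0.00570) and the rest did not pass. The median of the list was 0.45, beside 2.01% higher and a median of 0.09 over all genes tested. Orai2 missed the threshold without DMSO 1, 2, 3, 4, 7 or 8, Pac C11 or Pac D4 (edgeR adjusted p = 0.0106 to 0.0438).

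Several genes were near silent in Group 2 and detected in every control. Maoa, monoamine oxidase A, had 1 count in the 5 shared libraries and 7 in the 8, against 31.8 to 74.6 CPM in DMSO control. The pooled level of the 5 was 0.00108 of that in the controls (95% counting interval 2.7e-05 to 0.00602), and the library titled DMSO 12 held 2.01 CPM. Zfp979, a zinc finger gene, had 3 counts in the 8 libraries, all in Pac C11 and Pac E1, against 20.4 to 45.5 CPM, a pooled level in the shared libraries of 0.00509 of the control's (95% counting interval 0.00105 to 0.0149). Both genes had an edgeR adjusted p of 8.37e-11 in the tested set. Lipo3, of the acid lipase family on chromosome 19, had no count in any of the 8 libraries and 774 in the controls, at least 157-fold lower over the 8 and at least 106-fold lower over the 5. AW209491 stood at 0 to 1.65 CPM in the 8 libraries against 18.2 to 33.4 (log2 fold change -5.85, standard error 0.588, edgeR adjusted p = 4.49e-07), and Hsd17b11, a steroid dehydrogenase, at 0 to 4.53 against 14.2 to 245 (log2 fold change -6.50, standard error 0.827, edgeR adjusted p = 1.38e-05). The lowest control values of the long noncoding C430042M11Rik, of Gm595 and of Dele1 were 4.06, 3.42 and 4.92 CPM. C430042M11Rik had 11 counts in the 8 libraries against 350, Gm595 had 5 against 956 and Dele1, a relay of mitochondrial stress, had 0 against 489 (at least 99.3-fold lower). In the 6 of Group 1, Maoa, Zfp979, AW209491 and Lipo3 were at 0 to 2.04 CPM, Hsd17b11 at 0 to 10.5, C430042M11Rik at 0 to 4.08, Gm595 at 0 to 10.1 and Dele1 at 0 to 15.7 (median 0). None of these 8 genes differed between the groups past the threshold.

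Other genes were close to absent in controls and present in Group 2. Gpr65, a proton-sensing receptor of lymphoid cells, stood at 6.69, 27.9, 33.2, 25.6 and 13.2 CPM in the shared libraries and 23.7, 23.6 and 22.2 in DMSO 12, Pac C3 and Pac F10, against 0 to 1.49 CPM in the controls (log2 fold change 6.78, standard error 0.676, edgeR adjusted p = 4.49e-07). Prmt2, an arginine methyltransferase, was found in all 8 libraries at 0.503 to 4.95 CPM and at 0 in every control, at least 47.6-fold higher. Igf2r, the receptor that carries mannose-6-phosphate-tagged enzymes to lysosomes, held 1.02 to 19.4 CPM in the shared libraries against 0 to 0.615 (log2 fold change 5.52, standard error 0.586, edgeR adjusted p = 9.09e-07), but was at 0 in the library titled DMSO 12. Sgip1 and Ccdc90b rose by 6.06 and 4.50 on the log2 scale (edgeR adjusted p = 2.58e-05 and 3.84e-05), but Ccdc90b was at 0.172 CPM in Pac F10, within the control range of 0 to 2.48. Limd2, Ccdc181 and the chemokine gene Ccl25 rose from a higher base, by 3.14, 2.48 and 1.82 (edgeR adjusted p = 9.09e-07, 3.61e-05 and 3.28e-05), Limd2 to 38.9 to 361 CPM. None of these 8 genes differed between the 5 shared libraries and Group 1 past the threshold.

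Gm14165, a processed pseudogene on chromosome 2, took either low or very high values. It held 2084, 1198 and 1426 CPM in Pac C11, Pac D4 and Pac D10 and 1515 in DMSO 12, while Pac C3, Pac D7, Pac E1 and Pac F10 held 26.9, 24.9, 29.5 and 23.1. Group 1 was split likewise, with 1219 to 1892 CPM in 4 of the 6 and 10.2 and 20.4 in the others (log2 difference -0.12, edgeR adjusted p = 0.948). Controls held 10.5 to 16.6 CPM, below all 8 (log2 fold change in the tested set 6.09, standard error 0.793, edgeR adjusted p = 1.86e-05). Reads of a processed pseudogene can come from its parent gene or its copies, so its level is uncertain.

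B-lineage genes that passed were lower. Ms4a1, which encodes CD20, stood at 2.36, 1.06, 1.38, 1.02 and 3.54 CPM in the shared libraries and at 0 and 13.8 CPM in Pac C3 and Pac F10, but at 140.4 in the library titled DMSO 12. DMSO control itself ranged widely, from 6.96 to 583 CPM, and Group 1 from 12.2 to 134. The log2 fold change of the tested set was -7.02 against DMSO control (standard error 1.08, edgeR adjusted p = 0.000155) and -5.39 against Group 1 (standard error 1.06, edgeR adjusted p = 0.00907). The difference from Group 1 missed the threshold without any 1 of 9 libraries, Pac D10 and Pac C1 being the exceptions (edgeR adjusted p = 0.0117 to 0.0266). Ighd, the heavy chain of IgD, was below every control in all 8 libraries (8.47 to 38.4 CPM against 43.6 to 214, log2 fold change -2.32, standard error 0.406, edgeR adjusted p = 0.000575). Cd72, an inhibitory receptor of B cells, and Vpreb3, a chaperone-like gene of the pre-B-cell receptor family, fell by 1.26 and 0.99 on the log2 scale (edgeR adjusted p = 0.00339 and 0.00488). Neither passed without Pac C11 or Pac D4, nor did Cd72 without Pac D7 or Vpreb3 without Pac E1 (edgeR adjusted p = 0.0126 to 0.0178 for Cd72 and 0.0105 to 0.0204 for Vpreb3). With Cd79b these were 5 of 21 B-cell genes tested, none rose, and the median of the list was -0.45, beside 2.03% lower and a median of 0.09 over all genes tested. In bulk RNA, fewer cells that express a gene and less RNA of it per cell cannot be told apart. Cysltr1, a leukotriene receptor, was below every control in all 8 (23.04 to 65.8 CPM against 142 to 261), with log2 fold changes of -2.13 against DMSO control and -1.82 against Group 1 (edgeR adjusted p = 1.78e-06 and 0.000440). Cib1, a calcium-binding partner of integrins, did likewise (13.8 to 38.8 CPM against 55.9 to 87.3, log2 fold changes -1.68 and -1.37, edgeR adjusted p = 6.52e-06 and 0.00165). With only the 2 groups in the fit the differences of Cysltr1 and Cib1 from Group 1 missed the threshold (edgeR adjusted p = 0.0116 and 0.0562).

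Of the 10 erythroid and stromal genes listed 3 could be tested, and Hbb-bt and Pecam1 fell (2.03% of all genes tested were lower). Hbb-bt, an adult β-globin gene, stood at 4.24 to 10.2 CPM in the shared libraries, 6.96 to 71.8 (median 34.6) in DMSO control and 30.6 to 249 in Group 1, with a log2 fold change of -2.38 against DMSO control (standard error 0.518, edgeR adjusted p = 0.00420; 0.0101 to 0.0155 without Pac C11, Pac D4 or Pac E1) and -4.15 against Group 1 (standard error 0.580, edgeR adjusted p = 0.000453). DMSO 12, Pac C3 and Pac F10 held 23.2, 11.8 and 42.3 CPM, all within the control range, and 2 of the 8 lay below every control. Its paralog Hbb-bs was at 0 in all 19 libraries, and reads of globin copies can be split between them. Pecam1, an adhesion molecule that leukocytes also carry, fell by 1.18 on the log2 scale (standard error 0.269, edgeR adjusted p = 0.00570; 0.0202 without Pac C11 and 0.0110 without Pac D10). No gene of the T-cell (2 tested), plasma cell (2) or myeloid (1) lists passed.

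Signalling and antigen presentation genes that passed were higher, in few members of each list. Nfkbia, the inhibitor that NF-κB induces, stood at 107, 174, 378, 19.5 and 28.8 CPM in the shared libraries against 21.8 to 71.2 in DMSO control, so Pac D10 was below and Pac E1 within the control values (log2 fold change 1.90, standard error 0.398, edgeR adjusted p = 0.00304). Without Pac D7, which held the highest value of each among the shared libraries, Nfkbia, Jun, H2-K1, H2-D1, Gbp2 and Gbp3 no longer passed, with log2 fold changes of 1.08, 1.25, 2.02, 0.99, 2.88 and 2.43 (edgeR adjusted p = 0.0556, 0.0813, 0.0414, 0.0856, 0.0293 and 0.0280). Nfkbia also missed the threshold without Pac D4 (0.0125), Gbp2 without Pac C11 or Pac D4 (0.0118 and 0.0167), and H2-D1 without DMSO 1, 2, 4, 6 or 10 or Pac C11 (0.0116 to 0.0290). Jun and the chemokine gene Ccl3 rose by 2.38 and 5.02 on the log2 scale (edgeR adjusted p = 0.00271 and 0.000273), which makes 3 of 16 NF-κB and immediate early genes, with a list median of 1.076. Ccl3 was at 0 to 0.697 CPM in DMSO control and passed the filter on low counts only through resistant libraries. It could not be tested in 8 against 11, and could be in 9 of the 16 fits of 5 against 11 with 1 library left out. H2-K1, a class I MHC gene, stood at 124, 19.4, 427, 15.4 and 31.3 CPM against 1.14 to 44.2, with the highest value in Pac D7, and at 3.52 CPM in the library titled DMSO 12 (log2 fold change 3.44, standard error 0.671, edgeR adjusted p = 0.00176). H2-D1 rose by 1.70 (standard error 0.393, edgeR adjusted p = 0.00638). The class I genes are alike in sequence, and they were 2 of 14 antigen presentation genes tested (list median 0.69). The guanylate-binding protein genes Gbp2 and Gbp3 rose by 3.43 and 3.13 (edgeR adjusted p = 0.00529 and 0.00304), 2 of 27 interferon-induced genes (list median 0.43). Over all genes tested 2.01% were higher and the median was 0.09. Myc, whose counts cannot separate the transgene from the endogenous gene, stood at 1011 to 1436 CPM in the shared libraries against 671 to 1113 (log2 fold change 0.55, standard error 0.132, edgeR adjusted p = 0.00813), and the library titled Pac C3 held 2976. It was the single gene of 10 of the MYC network that passed, and it did not without any 1 of 13 of the 16 libraries (edgeR adjusted p = 0.0101 to 0.0465), all but DMSO 11, Pac C11 and Pac D10. Some of the 13 genes the study itself names, Bst1, Dglucy and Cacna1e among them, were picked from these samples, so the list's count is not independent evidence. Of the 8 tested, Abcb1b, Tubb3 and Gstm1 rose and G6pdx, Bax, Bst1 and Dglucy fell, and of those not tested Il6 and Ccl2 had 8 and 0 counts in the 8 libraries.

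**Figure D3:**
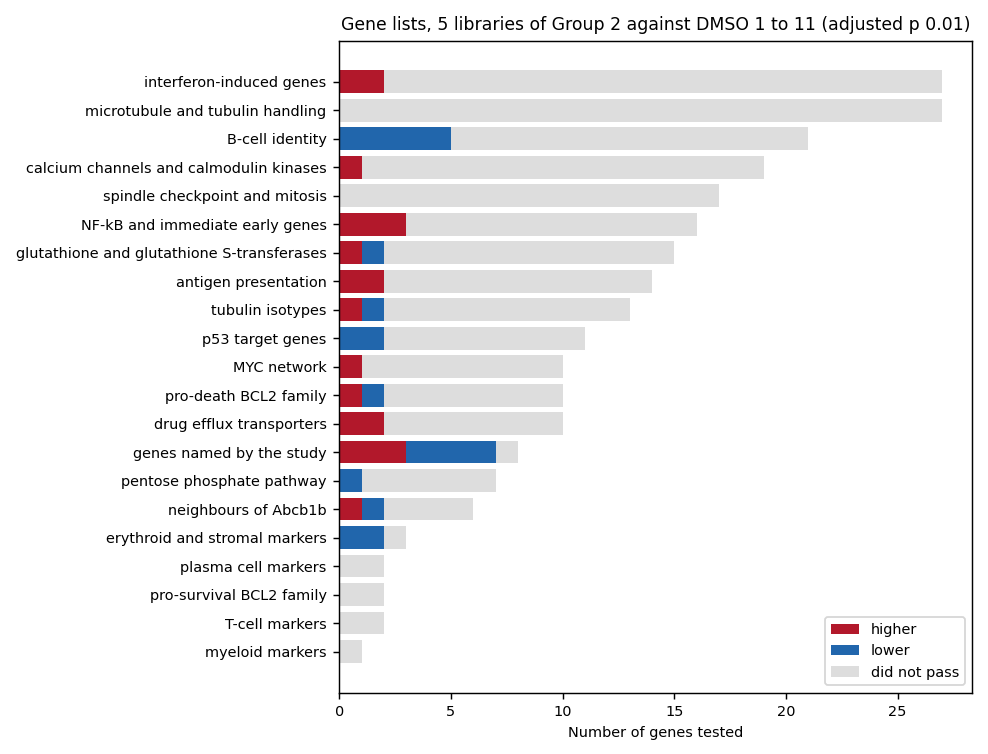
Number of genes tested in each gene list (horizontal axis) that were higher (red), lower (blue) or did not pass (grey) an adjusted p of 0.01 in the 5 shared libraries against DMSO 1 to 11. The B-cell list has 5 lower and none higher of 21, and the spindle and microtubule handling lists have none called.

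The share of genes called differed between chromosomes, and this was not tested. Over all genes tested 2.01% were higher and 2.03% lower. On chromosome 3, 39 of 495 genes tested were higher in the shared libraries (7.88%) and 7 lower. On chromosome 19, 36 of 395 were lower (9.11%) and none higher. Chromosome 5 had 28 higher of 668 (4.19%) and chromosome 11 had 32 of 862 (3.71%), while the X chromosome had 13 lower of 299 (4.35%) and chromosome 9 had 20 lower of 570 (3.51%). Close to these were chromosome 14 with 11 lower of 338 (3.25%) and chromosome 12 with 12 higher of 378 (3.17%). For each library the median log2 ratio to the mean of DMSO 1 to 11 was taken over all genes of a chromosome with a mean above 10 CPM.

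**Figure D4:**
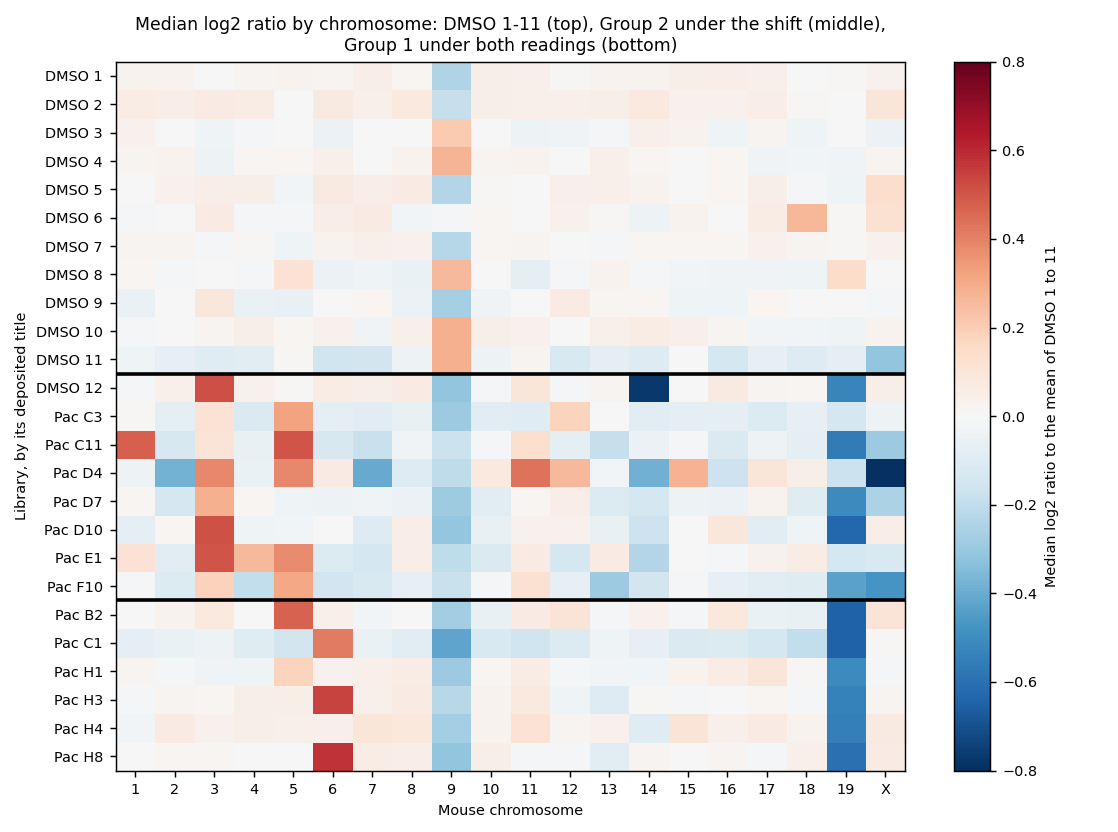
Median log2 ratio to the mean of DMSO 1 to 11 (colour) of the genes of each chromosome (columns) in each library (rows). The rows are DMSO 1 to 11, then the 8 libraries of Group 2 under the moved titles, then the 6 of Group 1; chromosome 19 is blue in all 8 and in all 6, chromosome 3 is red in all 8, and chromosome 6 is red in some of the 6.

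By this measure all 8 libraries lay below all 11 controls on chromosome 19, at -0.14 to -0.63, against -0.08 to 0.15 in DMSO control. The values were -0.56, -0.17, -0.51, -0.63 and -0.14 in Pac C11, Pac D4, Pac D7, Pac D10 and Pac E1 and -0.53, -0.14 and -0.43 in DMSO 12, Pac C3 and Pac F10, and the 6 of Group 1 held -0.51 to -0.65. All 8 lay above all controls on chromosome 3, at 0.51 in DMSO 12, Pac D10 and Pac E1, 0.39 in Pac D4, 0.29 in Pac D7, 0.18 in Pac F10, 0.11 in Pac C3 and 0.10 in Pac C11, against -0.10 to 0.09 in DMSO control and -0.04 to 0.08 in Group 1. Chromosome 5, which carries Abcb1b and Abcb4, was raised in Pac C11 (0.50), Pac D4 (0.38), Pac E1 (0.38), Pac C3 (0.32) and Pac F10 (0.31) and was near 0 in DMSO 12, Pac D7 and Pac D10 (0.01, -0.04 and -0.02), in all 8 of which Abcb1b stood above the controls. Single libraries stood out on other chromosomes: chromosome 14 was at -0.77 in DMSO 12, chromosome 1 at 0.48 in Pac C11 and the X chromosome, which carries Maoa, G6pdx and Cysltr1, at -0.94 in Pac D4 and -0.47 in Pac F10. Pac D4 was also apart on chromosomes 2 (-0.38), 7 (-0.40), 11 (0.44), 14 (-0.39) and 15 (0.28). Chromosome 6 was at -0.16 to 0.07 in the 8 libraries and at 0.03 to 0.58 in the 6 of Group 1. Controls also differed among themselves on chromosome 9, from -0.27 to 0.28, and the 8 libraries held -0.17 to -0.32 there.

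Where each library's chromosome median was taken out before the same test, an alternative added after these values were seen, 282 genes were called in 5 against 11, and 250 of them were among the 415. Chromosome 3 then had 9 genes higher and 9 lower, and chromosome 19 had 4 higher and 8 lower, a balance that centring each chromosome brings about by construction. Abcb1b, Gstm1 and G6pdx kept their calls, with log2 fold changes of 1.25, 3.96 and -1.25 (edgeR adjusted p = 7.06e-05, 1.39e-05 and 3.84e-06), while Bax, Gsto1, Orai2, Vpreb3, Myc and Gbp2 no longer passed, with log2 fold changes of -0.66, -0.53, 1.08, -0.92, 0.51 and 3.10 (edgeR adjusted p = 0.0294, 0.0662, 0.0230, 0.0125, 0.0124 and 0.0152). Fam111a and Ttc9c on chromosome 19, which fell by 1.28 and 1.26 on the log2 scale (edgeR adjusted p = 3.20e-06 and 6.52e-06), fell by 0.88 and 0.87 after it. Of the 7 genes higher in the shared libraries than in Group 1, 5 lay on chromosome 3 (Miga1, Crtc2, Hspa4l, Selenof and Prkci, named after their values were seen), and with the chromosome medians taken out 2 genes were higher and 22 lower between these groups.

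The 31 genes that separated the 5 shared libraries from the 6 of Group 1 included 24 that were also called in 5 against 11 (4.04% of all genes tested were), but both comparisons use the same 5 libraries, so nothing is read from that overlap. Tubb3 was the single gene of the tubulin list among them, and G6pdx, Bax, Bst1, Dglucy, Ms4a1, Cysltr1, Cib1 and Hbb-bt were among those lower in Group 2. This count rests on single libraries, being 160 without Pac D10, the shallowest of the 5 shared libraries, 17 without Pac D4, 20 without Pac D7, 11 without Pac H3, 20 without Pac H4 and 19 without Pac H8.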

How the data were processed

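RNA from 30 libraries (12 labelled DMSO control, 17 paclitaxel resistant and 1 parental) was sequenced by the authors as 3′ digital gene expression in 2 subpools of 15, whose membership is not given in the sources used here. The deposited values are raw counts per gene and library, made by the authors with STAR 2.5.1b on GRCm38 (mm10) and its gene counts. Neither collapse of molecular identifiers nor the strand setting is stated, so overlapping and antisense genes cannot be told apart, and all intervals cover counting error only. Of 55401 identifiers, 55141 matched a symbol in the GENCODE M21 annotation of the same build, from which coordinates come. Depth was 480919 to 6739131 counts per library.

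Counts were tested in edgeR 4.0.16 (R 4.3.3) by the quasi-likelihood test with TMM scaling, filterByExpr and Benjamini-Hochberg adjustment over all genes tested, at 0.01. One fit held DMSO (11), Group 2 (5) and Group 1 (6), and another the moved titles (11, 8 and 9). Standard errors are the fold change over the root of F and are approximate. The libraries titled Pac H9 and Parental were in no comparison. CPM are counts per 1000000 of the TMM-scaled total over all 30 libraries. Chromosome medians used log2(CPM + 1). In data simulated for 5 against 11 with 10271 genes, 22% of genes changed 2-fold and 66% of those changed 4-fold were recovered, with 0 false calls. Members and gene lists were chosen with earlier results of these data known.

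Named genes, of which 1 is not reported here, were the 12 lowest p in each direction of 5 against 11; genes the study names; up to 4 per list past the threshold; the 3 lowest p of 5 against 6; up to 6 genes in each direction with all 8 libraries at least 4-fold beyond all 11; and up to 5 genes with at least 50 CPM in 1 of the 8 and 10 times every other of 19 libraries. Alternatives were the likelihood ratio test, DESeq2 1.42.0, RLE scaling, other filters, only the 2 groups, thinning, a depth covariate, a threshold of 0.05, each library left out and, added later, chromosome medians taken out.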

Additional observations from a re-analysis of the deposited data

Results flagged for a closer look

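Within the 8 libraries, a single library stood far from the others in 5 of 51 named genes that could be examined (2 of 49 within the 5 shared libraries) on the log2(CPM + 1) scale, by a gap test that chance passes in about 1 of 20 groups. That rate does not apply to 3830403N18Rik, Igkv8-27 and Kynu, which were named because 1 library stood far above the rest. The other two, Hsd17b11 and Myc, are no more than that rate gives in 51 genes. 3830403N18Rik, on the X chromosome, stood at 258 CPM in Pac E1 and at most 3.37 in the other 18 libraries, and it stood apart among the 5 shared libraries too. Hsd17b11 stood at 4.53 CPM in Pac C11, in both sets, where the other libraries of the 8 held at most 0.842. Igkv8-27, an immunoglobulin light chain variable gene, stood at 56.4 CPM in Pac C3. Kynu, kynureninase, stood at 69.2 CPM in Pac D4. Myc stood at 2976 CPM in Pac C3.

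In 9 named genes the effect differed between the resistance groups by the direct edgeR test of 5 against 6 libraries. Over all genes tested 31 of 10271 passed it (0.302%). The number of named genes is not independent evidence. Cysltr1, Dglucy and Hbb-bt were named for the 3 lowest p of this same test. The study had reported Tubb3, G6pdx, Bax, Bst1 and Dglucy as differing between its groups in these samples. Tubb3 was higher in Group 2 by 3.74 on the log2 scale. The others were lower in Group 2, with log2 differences of -1.16 for Bax, -3.22 for Bst1, -1.37 for Cib1, -1.82 for Cysltr1, -3.54 for Dglucy, -1.39 for G6pdx, -4.15 for Hbb-bt and -5.39 for Ms4a1. What moved them was not tested.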

How the results depend on the processing

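Of the 50 named genes past an adjusted p of 0.01 in 5 against 11 libraries, none changed direction under any alternative run. Of them, 31 passed in every fit with 1 library left out in which they could be tested. In those fits and in every alternative in which they could be tested, 20 passed. For some this leaves out the thinning, and Ccl3 could be tested in 9 of the 16 fits with 1 library left out. Calls were lost in 26 of them (36 still tested) when all libraries were thinned to 480919 counts, in 9 with only the 2 groups in the fit, in 6 with chromosome medians taken out and in 1 under the other alternatives. Of the 9 named genes of 5 against 6, 7 were lost with only the 2 groups (all but Ms4a1 and Hbb-bt) and the 8 still tested were lost after thinning, while Bax was lost with chromosome medians taken out and Ms4a1 with the depth covariate.

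Counts of genes called are given for 8 against 11, then 5 against 11, then 5 against 6. They were 770, 739 and 292 by the likelihood ratio test and 788, 707 and 271 by DESeq2. They were 320, 268 and 2 with only the 2 groups compared, 25, 31 and 2 after thinning, which keeps fewer genes and counts, and 1285, 1233 and 440 at an adjusted p of 0.05. With any gene of at least 1 count kept they were 564, 584 and 60. RLE scaling, a filter of 10 counts in 5 libraries, the depth covariate and chromosome medians taken out (not run for 8 against 11) each gave counts within 1.5 times those of the report. Leaving out single libraries gave 295 to 598, 219 to 802 and 11 to 160. In 8 against 11 the titles as deposited gave 196, and leaving out DMSO 12, Pac C3 and DMSO 11 together, chosen after the data were seen, gave 1350. Where no construction is named, the cause was not tested. No paired analysis was possible because DMSO lines carry numbers and resistant lines well names. Subpool membership is not given, so the subpool and the group cannot be told apart.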

Other observations

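The library titled Pac E1 held 379.7 CPM of Rhox5, a reproductive homeobox gene on the X chromosome, where the other 18 libraries of the comparison held at most 16.05. In the library titled DMSO 12, Dennd2d stood at 134 CPM, against at most 13.2 in the other 18, while Pac C1 of Group 1 held 65.2.

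The libraries titled Pac H9 and Parental take no place in either resistance group under the moved titles and were in no comparison. Pac H9 held 25.99 CPM of Abcb1b and 0 of Tubb3, with 17.0 CPM of Maoa, 16.1 of Zfp979 and 20.6 of Lipo3. The library titled Parental held 29.6, 1.77, 47.9, 30.2 and 15.4 CPM of the same genes. The chromosome 19 median was -0.27 in Pac H9 and -0.10 in Parental.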
